A study of Mus musculus with 8 samples.

Results

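The genes described here are 42 members of the unfolded protein response and of the ATF4 stress response, out of 27799 genes with a probe on the array. They were taken by name, and the list was written with earlier results of these data known. It holds 14 chaperones and folding factors of the endoplasmic reticulum (ER) and 6 genes of ER-associated degradation. The others are 7 stress sensors and transcription factors, and 15 targets of the transcription factor ATF4. The RNA came from MC3T3-E1, a mouse preosteoblast cell line, grown in co-culture with tumour cells and hybridised to 8 arrays of 2 colours. Osteoblasts cultured with Jagged1-overexpressing tumour cells and given MRK-003 form the first group, those with vector control tumour cells and MRK-003 the second, those with Jagged1-overexpressing tumour cells and DMSO the third, and those with vector control tumour cells and DMSO the fourth. Jagged1 is a membrane-bound ligand of Notch receptors, and MRK-003 blocks gamma-secretase, which must cut a bound Notch receptor before its inner part can reach the nucleus. DMSO is its vehicle. Each group had 2 biological replicates. The sources used here name neither the tumour line nor its species, and they do not say how osteoblast RNA was kept apart from tumour cell RNA. All 4 groups share 1 osteoblast line.

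Proteins that enter the ER are folded there by chaperones such as BiP, the product of Hspa5. When unfolded proteins accumulate, the sensors PERK (Eif2ak3), IRE1 (Ern1) and ATF6 are activated. IRE1 splices the Xbp1 message, and XBP1 and ATF6 switch on chaperones and genes of degradation. PERK phosphorylates the translation factor eIF2, which lowers protein synthesis while favouring translation of ATF4. Other kinases act on eIF2 as well, for example when amino acids run short, so ATF4 targets can change without unfolded protein. ATF4 drives genes of amino acid synthesis and uptake, and it is needed for the function of osteoblasts, which secrete large amounts of collagen.

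Promoter sequence differed between the roles. In the RefSeq windows of build GRCm38.p6, which run from 250 bases before to 50 after a gene's start, 35 of the 42 members were matched; none was matched for Hyou1, Manf, Derl1, Atf6, Cth, Slc7a5 and Nars. The ER stress response element (ERSE) is bound by NF-Y together with ATF6 or XBP1. Chaperones and genes of degradation stand among the members as genes that these factors switch on, so finding the ERSE there is no independent result. It was searched on both strands as CCAAT followed by CCACG with 9 bases of any kind between them. It was found in 9 of the 35 members, 7 of them chaperones or folding factors and 2 of them genes of degradation, and in 0.119% of all 32851 windows. No sensor and no ATF4 target held it. The elements are printed below to show what these 9 genes share. Each line runs 5′ to 3′ on the strand named, with 5 bases on either side and the fixed letters in capitals.
Hspa5, chr2:34772020-34772048, plus strand: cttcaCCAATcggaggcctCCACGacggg
Calr, chr8:84847070-84847098, plus strand: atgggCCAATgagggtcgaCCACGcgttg
Hsp90b1, chr10:86705633-86705661, minus strand: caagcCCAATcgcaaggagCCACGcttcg
Hsp90b1, chr10:86705528-86705556, plus strand: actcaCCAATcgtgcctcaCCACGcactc
Canx, chr11:50325795-50325823, minus strand: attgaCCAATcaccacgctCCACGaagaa
Pdia6, chr12:17266486-17266514, plus strand: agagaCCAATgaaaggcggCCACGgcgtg
Dnajc3, chr14:118937822-118937850, plus strand: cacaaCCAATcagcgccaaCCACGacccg
Creld2, chr15:88819515-88819543, minus strand: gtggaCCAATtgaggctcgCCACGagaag
Derl3, chr10:75893237-75893265, minus strand: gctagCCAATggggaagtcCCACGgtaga
Syvn1, chr19:6046527-6046555, plus strand: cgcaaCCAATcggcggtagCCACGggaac

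The 9 bases between the fixed letters differed from gene to gene, and Hsp90b1 held the element on both strands. A related element, ERSE-II (ATTGG and CCACG with 1 base between them, both strands), was in the windows of Herpud1 and Dnajb11 and in 0.0365% of all windows; it shares the letters CCACG with the ERSE. The Hspa5 promoter is given as the best-known example, from chr2:34771840-34772089 on the plus strand. Capitals mark the ERSE that matched all fixed letters, and looser matches were not searched for.
Hspa5: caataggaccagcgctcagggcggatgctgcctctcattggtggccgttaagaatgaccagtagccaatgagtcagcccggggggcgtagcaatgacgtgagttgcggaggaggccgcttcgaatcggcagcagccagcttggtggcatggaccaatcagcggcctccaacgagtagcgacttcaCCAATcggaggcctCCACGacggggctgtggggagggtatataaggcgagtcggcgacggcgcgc

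As searched in these windows, letters known from ATF4 targets were in fewer of the members than the ERSE was. The amino acid response element searched as TGATGNAAT was in the window of Aars alone among the members (0.965% of all windows), and the palindromic cyclic AMP response element TGACGTCA in that of Ppp1r15a alone (1.79% of all windows). The unfolded protein response element TGACGTGG was in no member and in 0.676% of all windows. A match is a string of letters in a window and not a measured binding site.
Aars, chr8:111033724-111033742, minus strand: tcggcTGATGcAATgctca
Ppp1r15a, chr7:45526268-45526285, minus strand: tccggTGACGTCAgcaca

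Each value below is the log2 ratio of the sample in Cy3 over Universal Mouse Reference RNA in Cy5, so a value of 0 is the level in that reference and values of different probes are not set against each other. Replicate 1 of every group was on slide 1 and replicate 2 on slide 2. Of the 42 members all passed the filter on dim probes, as did 22816 genes in all. The median Cy3 signal lay between 76.5 and 204 per array, and 71.4 to 89.4% of spots were well above background. Notch target Hey1 served as a check: it fell by 4.44 with MRK-003 beside Jagged1 tumour cells (adjusted p = 0.032). The 10 osteoblast markers looked for, Runx2 and Col1a1 among them, were well above background on all 8 arrays. Of 8 epithelial markers, 7 or 8 were well above background on each array, with summed Cy3 signals of 1820 to 4490. All 7 macrophage markers were too, with sums of 1180 to 3430. The osteoblast sums of 205000 to 302000 rest on a few bright probes. Mean signals ran from 149 (Bglap) to 65300 (Col1a2) for osteoblast markers, and from 41.4 (Cdh1) to 986 (Krt18) for epithelial ones. Such sums do not give the share of RNA from each cell type. The 2 Jagged1 DMSO arrays and Jagged1 MRK-003 replicate 2 had a few spots with a local background of 2410, 21100 and 32900, against 41 to 350 on the others, and on them the background model compressed the ratios of dim probes. Values with the local background limited to the 99th percentile of its array are therefore given for the members that this moves.

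No member passed an adjusted p of 0.05 (limma, Benjamini-Hochberg over all 22816 genes) in any comparison. With MRK-003 against DMSO beside Jagged1 tumour cells, 0.311% of all genes passed, and with MRK-003 beside vector tumour cells 0%. For Jagged1 against vector tumour cells 0% passed in MRK-003 and 0.0175% in DMSO, 0.00877% in each direction. At an unadjusted p under 0.05, MRK-003 beside Jagged1 tumour cells had 6 members higher and 4 lower, where 4.83% of all genes were higher and 3.91% lower. MRK-003 beside vector tumour cells had 3 members higher and 7 lower, where the shares over all genes were 1.42% and 2.23%. Jagged1 in MRK-003 had 0 members on either side (0.228% of all genes higher and 0.403% lower), and Jagged1 in DMSO had 3 higher and 2 lower (3.2% and 4.95%). Without a block, the p-values measure the spread between replicates of 1 cell line, pooled over the groups. Replicate number and slide coincide, so this spread includes any difference between slides.

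With the slide as a block in the fit, Psat1 (adjusted p = 0.0292) and Phgdh (adjusted p = 0.0464) passed as higher with MRK-003 beside Jagged1 tumour cells, where 1.35% of all genes were called higher and 0.942% lower. With Jagged1 in DMSO the block called 0 members, 0.184% of all genes as higher and 0.281% as lower. With the limited background alone, MRK-003 beside Jagged1 tumour cells called 0 members, 1.07% of all genes as higher and 1.13% as lower. When the block was joined to the limited background, 6 members passed as higher there, namely Phgdh, Psat1, Slc7a5, Chac1, Cth and the chaperone Canx, and 3 as lower, namely Xbp1, Syvn1 and Ppp1r15a. All genes were then called higher in 5.82% and lower in 3.9%. Of the 6 higher members 5 were ATF4 targets. The 3 lower ones came from 3 different roles, and Ppp1r15a among them is also an ATF4 target. Of 26 further ATF4 targets outside the members, 1 was called higher and 4 lower in the same fit.

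**Figure D1:**
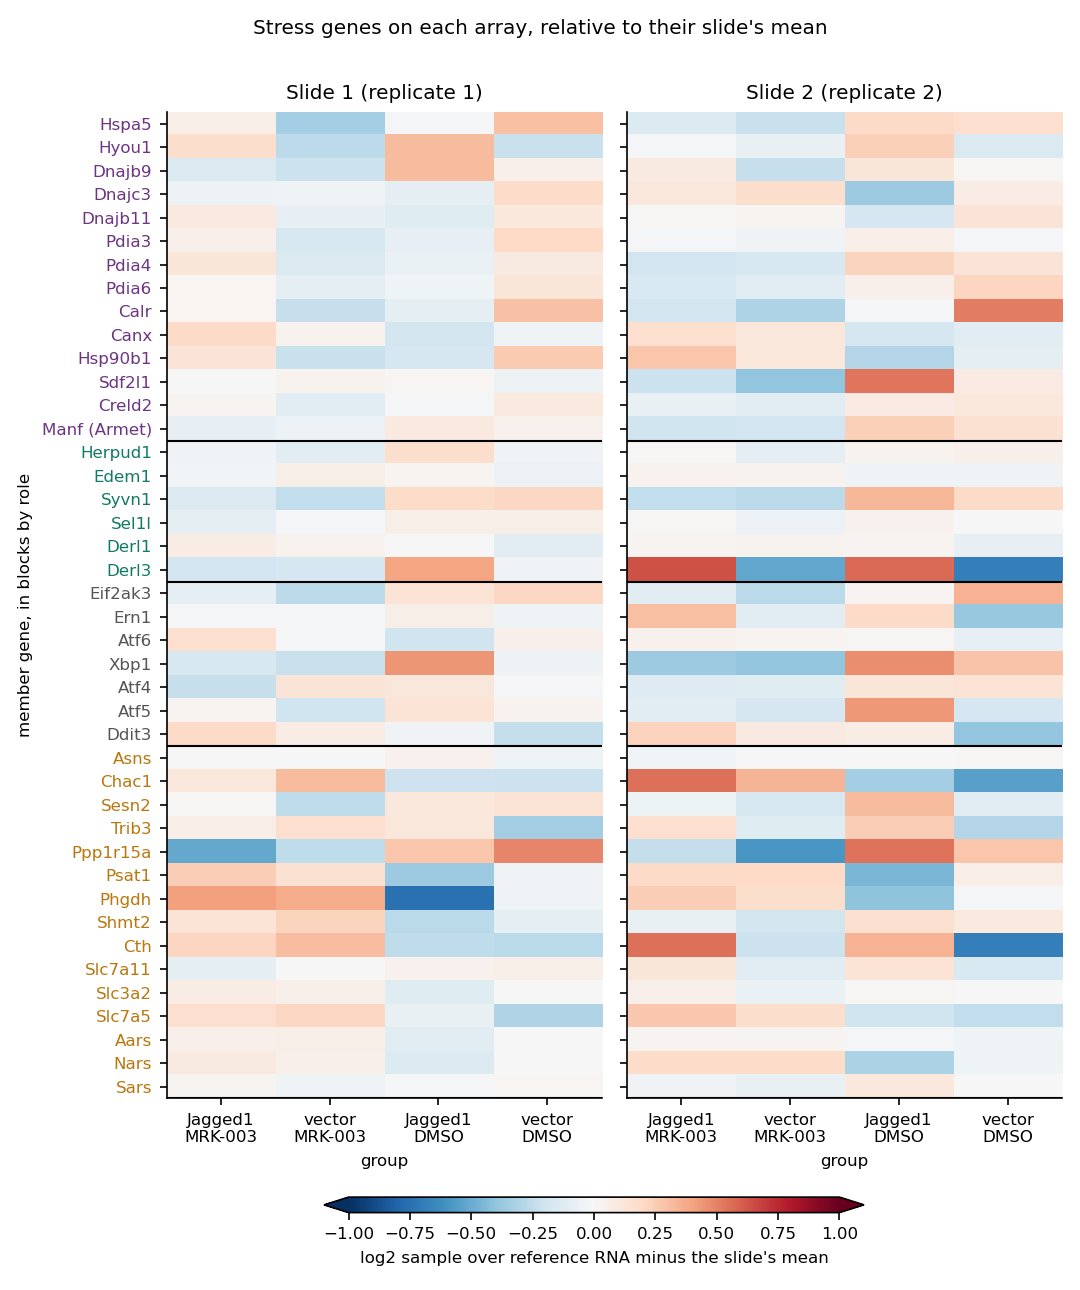
Colour shows the log2 ratio of sample over reference RNA on each of the 8 arrays after the mean of the slide is taken off, with genes in blocks by role (chaperones, degradation, sensors, ATF4 targets from the top) and the 2 slides side by side. Syvn1, Xbp1 and Ppp1r15a are lower on all 4 MRK-003 arrays than on the 4 DMSO arrays, and Chac1, Slc7a5 and Phgdh are higher.

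The 14 chaperones and folding factors gave small differences. With MRK-003 beside vector tumour cells their median log2 difference was -0.21, against 0.00 over all genes; 12 of the 14 differences were negative, and 48.5% of all genes had a negative one. On slides 1 and 2 the median was -0.22 and -0.23. It was -0.12 with median centring and -0.14 from Cy3 alone. Both MRK-003 arrays lay below both DMSO arrays for 7 of the 14 and above them for 0, where 12.2% of all genes lay wholly below and 13.6% wholly above. Of the 14, 3 had an unadjusted p under 0.05, and none passed after adjustment. Beside Jagged1 tumour cells the median was -0.06, with 9 negative differences, where 48.6% of all genes were positive and 51.4% negative, and it was 0.07 on slide 1 and -0.17 on slide 2. In bulk RNA, fewer cells of a type and less RNA per cell cannot be told apart.

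BiP is the main Hsp70 chaperone of the ER lumen and holds the sensors inactive. Its gene Hspa5 read -0.69 and -0.82 with Jagged1 and MRK-003, -1.09 and -0.91 with vector and MRK-003, -0.77 and -0.49 with Jagged1 and DMSO, and -0.45 and -0.52 with vector and DMSO (replicates 1 and 2). The 2 vector MRK-003 arrays were the lowest of the 8, and they did not overlap the vector DMSO arrays. The difference was -0.51 ± 0.13 (SE, n = 2 each; unadjusted p = 0.00671, adjusted p = 1). Beside Jagged1 tumour cells the groups overlapped and the difference was -0.13 ± 0.13. The reference channel of this probe was saturated on all 4 arrays of slide 1, and from Cy3 alone the difference beside vector tumour cells was -0.28. The probe lies at chr2:34783421-34783480 of mm7.

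Calr encodes calreticulin, a calcium-binding lectin that folds glycoproteins. It read -0.21 and -0.05 with Jagged1 and MRK-003, -0.46 and -0.17 with vector and MRK-003, -0.32 and 0.12 with Jagged1 and DMSO, and 0.06 and 0.65 with vector and DMSO. The vector DMSO arrays were the highest of their own slides, and the vector MRK-003 arrays lay below both. The difference for MRK-003 beside vector tumour cells was -0.67 ± 0.25 (adjusted p = 1), and beside Jagged1 tumour cells it was -0.03 ± 0.25. A second Calr probe, also well above background on all 8 arrays, gave the opposite order, with -0.44 beside Jagged1 and -0.11 beside vector tumour cells. A test of the difference between these, which is the interaction, gave 0 members and 0% of all genes past an adjusted p of 0.05; at an unadjusted p under 0.05 it also gave 0 members (0.828% of all genes higher, 1.4% lower). Calr was at -0.64 ± 0.35 in it with the brightest probe, 0.33 with the second and -0.16 over both. Hspa5 was at -0.38 ± 0.18, and the chaperone median was -0.20, with 11 of 14 negative where 50.8% of all genes were positive and 49.2% negative. The interaction is the Jagged1 difference in DMSO minus that in MRK-003.

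Among the other chaperones, Hyou1, the large ER chaperone that recharges BiP, had the smallest unadjusted p of the 42 members with Jagged1 in DMSO. It read -0.83 and -1.03 with Jagged1 and MRK-003, -1.27 and -1.09 with vector and MRK-003, -0.69 and -0.78 with Jagged1 and DMSO, and -1.23 and -1.16 with vector and DMSO. Both Jagged1 groups lay above both vector groups on all arrays. The difference was 0.25 ± 0.11 in MRK-003 and 0.46 ± 0.11 in DMSO (unadjusted p = 0.00593, adjusted p = 0.378), but with median centring in place of loess they were -0.14 and 0.06, and with the limited background the arrays in MRK-003 overlapped (0.22). Median centring of values with the limited background gave 0.23 and 0.30. With MRK-003 the difference was -0.19 ± 0.11 beside Jagged1 and 0.02 ± 0.11 beside vector tumour cells.

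Dnajb11, a co-chaperone of BiP, read 0.37 and 0.43 with Jagged1 and MRK-003, 0.19 and 0.44 with vector and MRK-003, 0.15 and 0.25 with Jagged1 and DMSO, and 0.38 and 0.54 with vector and DMSO. The Jagged1 DMSO arrays lay below those of Jagged1 MRK-003 and of vector DMSO, with differences of 0.21 ± 0.12 for MRK-003 and -0.26 ± 0.12 for Jagged1. Canx encodes calnexin, a membrane-bound lectin chaperone. It read -0.31 and -0.14 with Jagged1 and MRK-003, -0.47 and -0.19 with vector and MRK-003, -0.69 and -0.47 with Jagged1 and DMSO, and -0.54 and -0.42 with vector and DMSO. MRK-003 and DMSO arrays were apart beside Jagged1 tumour cells (0.35 ± 0.14, adjusted p = 0.534) and overlapped beside vector tumour cells (0.15 ± 0.14), and its other probes gave 0.02 and -0.02 beside Jagged1 tumour cells.

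Hsp90b1 encodes the ER form of Hsp90. It read 0.43 and -0.01 with Jagged1 and MRK-003, 0.08 and -0.17 with vector and MRK-003, 0.14 and -0.58 with Jagged1 and DMSO, and 0.57 and -0.38 with vector and DMSO. Slide 2 was lower than slide 1 in all 4 groups, every comparison overlapped, and the reference channel was saturated on 6 of the 8 arrays. The 8 chaperones not given by array are the folding enzymes Pdia3, Pdia4 and Pdia6, the co-chaperones Dnajb9 and Dnajc3, and Sdf2l1, Creld2 and Manf, which is named Armet in the files. Over all 14 chaperones the MRK-003 differences ran from -0.38 to 0.43 beside Jagged1 tumour cells and from -0.67 to 0.15 beside vector tumour cells.

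With Jagged1 against vector tumour cells the chaperone median was 0.11 in MRK-003, with 12 of 14 differences positive, and -0.10 in DMSO, with 10 of 14 negative. Over all genes 50.5% were positive and 49.5% negative in MRK-003, and 51% and 49% in DMSO. Median centring gave chaperone medians of -0.32 and -0.50, and median centring of values with a limited background gave 0.11 and -0.20. The direction in MRK-003 thus turned with median centring only when the background was as fitted. The 9 members with an ERSE had 7 negative differences with MRK-003 beside vector tumour cells (median -0.21) and 6 beside Jagged1 tumour cells (median -0.06). With Jagged1 they had 8 positive differences in MRK-003 (median 0.10) and 7 negative ones in DMSO (median -0.14). The 26 matched members without an ERSE had 16 negative MRK-003 differences beside vector and 15 beside Jagged1 tumour cells (median -0.06 each). With Jagged1 those 26 had 20 positive differences in MRK-003 (median 0.07) and 17 positive ones in DMSO (median 0.04).

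Over the 8 arrays, with slide means taken off, the members whose values ran closest to Hspa5 were Creld2 (Pearson r = 0.97), Pdia4 (0.87) and Pdia6 (0.84), all chaperones or folding factors. Closest to Ddit3 were Derl1 (0.92), Cth (0.86) and Slc7a5 (0.82). These 8 points share 2 slides and 1 reference RNA, and are given as a description.

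**Figure D2:**
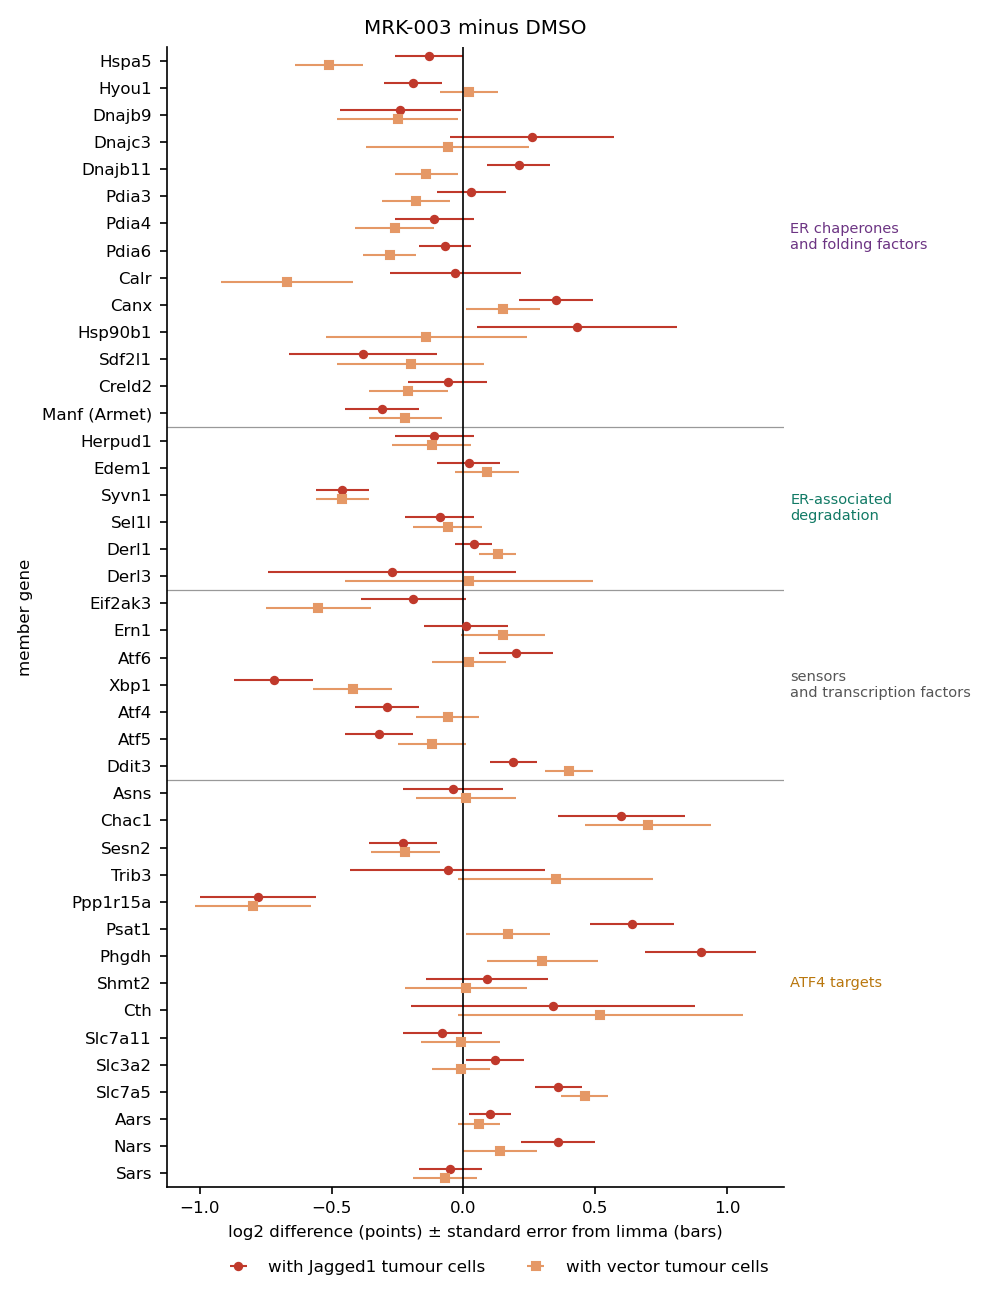
Points show the log2 difference of MRK-003 minus DMSO for each of the 42 members beside Jagged1 tumour cells and beside vector tumour cells, with bars of 1 standard error from limma (n = 2 arrays per group). Syvn1 sits at -0.46 beside both kinds of tumour cells, and Hspa5 and the brightest Calr probe lie further below 0 beside vector than beside Jagged1 tumour cells, while a second Calr probe, not plotted, gave -0.44 beside Jagged1 and -0.11 beside vector tumour cells.

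ER-associated degradation carries misfolded proteins out of the ER for destruction. Among its 6 genes Syvn1, the ubiquitin ligase also called HRD1, had the smallest p with MRK-003. It read -0.19 and -0.22 with Jagged1 and MRK-003, -0.29 and -0.24 with vector and MRK-003, 0.14 and 0.36 with Jagged1 and DMSO, and 0.16 and 0.22 with vector and DMSO. All 4 MRK-003 arrays were below 0 and all 4 DMSO arrays above it. The difference was -0.46 ± 0.10 beside Jagged1 tumour cells (1.37-fold lower; unadjusted p = 0.00347, adjusted p = 0.165) and -0.46 ± 0.10 beside vector tumour cells (unadjusted p = 0.00345, adjusted p = 1). A second, much dimmer Syvn1 probe gave -0.04 and -0.02. The brighter probe is at chr19:5948374-5948433 of mm7, and the Syvn1 promoter carries the ERSE shown above.

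Because the MRK-003 comparisons share no arrays, their mean was added after the data had been seen. In that mean 0.32% of all genes and 0 members passed; 7 members were higher and 6 lower at an unadjusted p under 0.05, where 4.92% and 5.08% of all genes were. Syvn1 stood at -0.46 ± 0.07 (adjusted p = 0.08), and it passed with the slide as a block (adjusted p = 0.0306) or with the limited background (adjusted p = 0.0412). With the block, 6 members passed in the mean, where 1.38% of all genes were called higher and 1.35% lower: Slc7a5, Psat1 and Phgdh as higher, and Syvn1, Ppp1r15a and Eif2ak3 as lower. With the limited background and the block, 7 passed as higher and 5 as lower (4.81% and 4.47% of all genes), with Canx, Ddit3, Chac1 and Cth added to the higher members and Calr and Xbp1 to the lower ones. The mean over both kinds of tumour cells put all 4 MRK-003 arrays above all 4 DMSO arrays for 5 of the 42 members and below them for 4, where 2.67% and 3.46% of all genes did so.

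Derl3, a derlin of the retrotranslocation machinery, is dim on these arrays (mean Cy3 signal 120). It read -2.30 and -0.89 with Jagged1 and MRK-003, -2.27 and -2.05 with vector and MRK-003, -1.71 and -0.96 with Jagged1 and DMSO, and -2.14 and -2.21 with vector and DMSO. The 3 highest values came from the 3 arrays with spots of high local background. Jagged1 against vector tumour cells in DMSO gave 0.85 ± 0.47, and 0.06 with the limited background. The other genes of degradation, Herpud1, Edem1, Sel1l and Derl1, had MRK-003 differences between -0.12 and 0.13 beside either kind of tumour cells.

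None of the 3 sensors passed without the slide as a block. Eif2ak3, the kinase PERK, read -0.78 and -0.48 with Jagged1 and MRK-003, -0.95 and -0.64 with vector and MRK-003, -0.55 and -0.34 with Jagged1 and DMSO, and -0.48 and -0.02 with vector and DMSO. Both vector MRK-003 arrays lay below both vector DMSO arrays (-0.55 ± 0.20, unadjusted p = 0.0362, adjusted p = 1), while the Jagged1 groups overlapped (-0.19 ± 0.20). The mean of both MRK-003 differences was -0.37 ± 0.14 (adjusted p = 0.466), and it passed as lower with the slide as a block (adjusted p = 0.0484). Ern1, the kinase and endoribonuclease IRE1, read -0.53 and -0.17 with Jagged1 and MRK-003, -0.53 and -0.57 with vector and MRK-003, -0.46 and -0.28 with Jagged1 and DMSO, and -0.56 and -0.85 with vector and DMSO. Its MRK-003 groups overlapped their DMSO groups, and the Jagged1 difference in DMSO was 0.34 ± 0.16, or 0.10 with the limited background. Atf6, a membrane-bound transcription factor released by cleavage, read -0.59 and -0.56 with Jagged1 and MRK-003, -0.78 and -0.57 with vector and MRK-003, -0.96 and -0.59 with Jagged1 and DMSO, and -0.71 and -0.68 with vector and DMSO. Its differences lay between -0.08 and 0.20 in all 4 comparisons.

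Among the transcription factors, Xbp1 had the smallest p. It read -0.75 and -0.86 with Jagged1 and MRK-003, -0.81 and -0.89 with vector and MRK-003, -0.15 and -0.03 with Jagged1 and DMSO, and -0.64 and -0.21 with vector and DMSO. The MRK-003 arrays lay close together and below all 4 DMSO arrays, and the Jagged1 DMSO arrays were the highest. The difference was -0.72 ± 0.15 beside Jagged1 tumour cells (1.64-fold lower; unadjusted p = 0.00345, adjusted p = 0.165) and -0.42 ± 0.15 beside vector tumour cells (adjusted p = 1). Jagged1 against vector gave 0.04 ± 0.15 in MRK-003 and 0.34 ± 0.15 in DMSO, the second turning to -0.07 with median centring. With median centring of values with the limited background the second was 0.21. The probe, at chr11:5476970-5477029 of mm7, does not tell the spliced from the unspliced message.

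Atf4, which is controlled largely through its translation, read -1.30 and -1.11 with Jagged1 and MRK-003, -0.94 and -1.10 with vector and MRK-003, -0.96 and -0.86 with Jagged1 and DMSO, and -1.08 and -0.84 with vector and DMSO. Its difference with MRK-003 was -0.29 ± 0.12 beside Jagged1 tumour cells, where the arrays did not overlap, and -0.06 ± 0.12 beside vector tumour cells, where they did. The related factor Atf5 read -0.72 and -0.83 with Jagged1 and MRK-003, -0.95 and -0.89 with vector and MRK-003, -0.61 and -0.29 with Jagged1 and DMSO, and -0.71 and -0.89 with vector and DMSO. The Jagged1 DMSO arrays were the highest, with -0.32 ± 0.13 for MRK-003 beside Jagged1 tumour cells (adjusted p = 0.567). Jagged1 in DMSO gave 0.35 ± 0.13, which was -0.06 with median centring and 0.24 with median centring of values with the limited background.

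Ddit3 encodes CHOP, a transcription factor induced in prolonged stress. It read -1.0 and -0.93 with Jagged1 and MRK-003, -1.12 and -1.07 with vector and MRK-003, -1.23 and -1.08 with Jagged1 and DMSO, and -1.43 and -1.55 with vector and DMSO. The vector DMSO arrays were the lowest of the 8, and no comparison overlapped. MRK-003 gave 0.19 ± 0.09 beside Jagged1 tumour cells and 0.40 ± 0.09 beside vector tumour cells (1.32-fold higher; unadjusted p = 0.005, adjusted p = 1). Jagged1 gave 0.13 ± 0.09 in MRK-003 and 0.33 ± 0.09 in DMSO (unadjusted p = 0.0107, adjusted p = 0.452), and with median centring -0.27 and -0.05. Median centring of values with the limited background gave 0.10 and 0.15 for Jagged1. Ddit3 and Xbp1 thus lay on opposite sides of 0 under MRK-003.

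**Figure D3:**
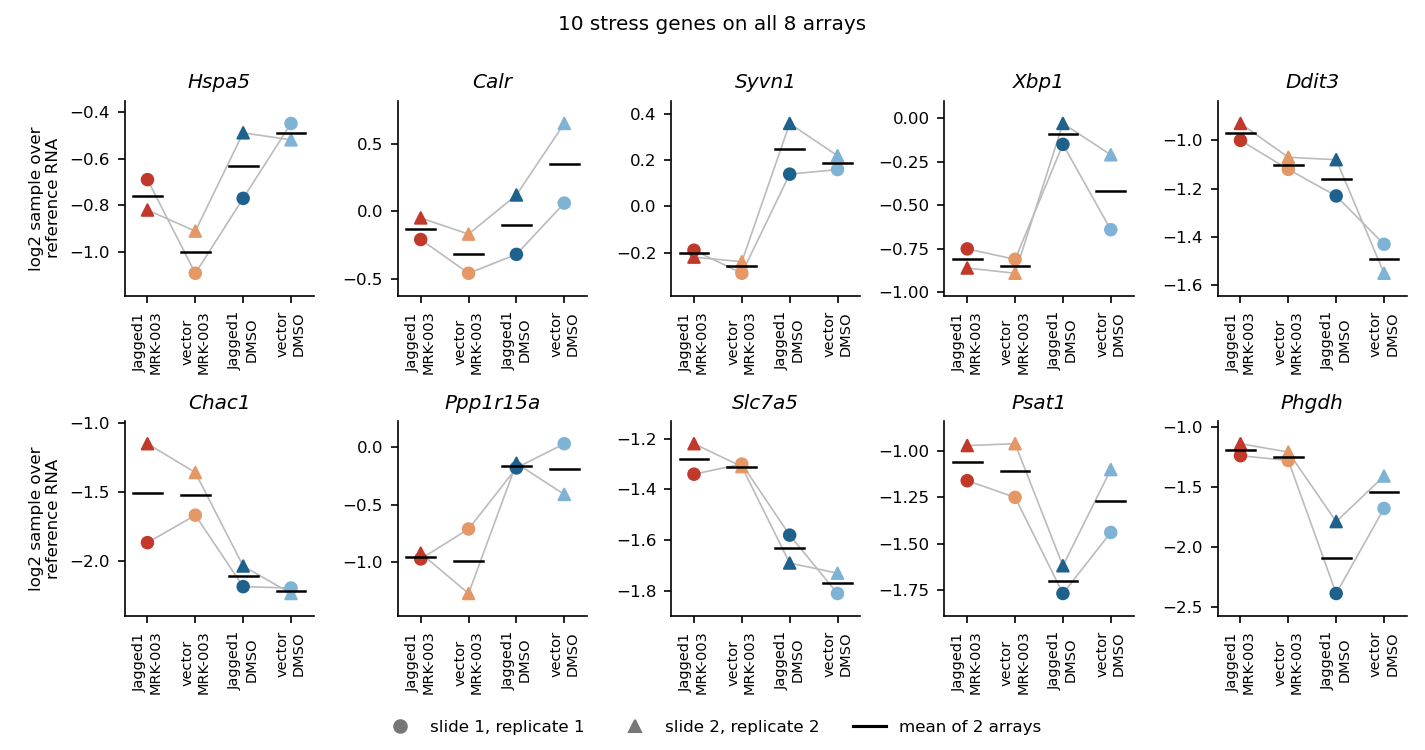
Each panel shows 1 gene, with its log2 ratio of sample over reference RNA on the vertical axis and the 4 groups along the horizontal axis; circles are slide 1, triangles slide 2, grey lines join arrays of a slide and black bars are means of 2 arrays. In Syvn1, Xbp1 and Ppp1r15a the 4 MRK-003 arrays sit below the 4 DMSO arrays, and in Chac1, Slc7a5 and Phgdh above them.

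The 15 ATF4 targets had medians near that of all genes: the median difference with MRK-003 was 0.10 beside Jagged1 tumour cells and 0.06 beside vector tumour cells, against 0.00 over all genes, with 9 and 10 positive differences of 15. Individual targets lay further apart than the chaperones did, from -0.78 to 0.90 beside Jagged1 and from -0.80 to 0.70 beside vector tumour cells. Both MRK-003 arrays lay above both DMSO arrays for 6 targets and below for 2 beside Jagged1 tumour cells, where 18.5% and 16% of all genes did so. Beside vector tumour cells 5 lay above and 2 below, where 13.6% and 12.2% of all genes did so.

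The enzymes Phgdh and Psat1 catalyse the first steps of serine synthesis from a glycolytic intermediate. Phgdh read -1.24 and -1.14 with Jagged1 and MRK-003, -1.28 and -1.21 with vector and MRK-003, -2.39 and -1.79 with Jagged1 and DMSO, and -1.68 and -1.41 with vector and DMSO. The MRK-003 arrays lay within a narrow range above all DMSO arrays, and the Jagged1 DMSO arrays were the lowest. MRK-003 beside Jagged1 tumour cells gave 0.90 ± 0.21 (1.87-fold higher; unadjusted p = 0.00493, adjusted p = 0.198; adjusted p = 0.0464 with the slide as a block), and beside vector tumour cells 0.30 ± 0.21. Psat1 read -1.16 and -0.97 with Jagged1 and MRK-003, -1.25 and -0.96 with vector and MRK-003, -1.77 and -1.62 with Jagged1 and DMSO, and -1.44 and -1.10 with vector and DMSO. Here too the Jagged1 DMSO arrays were the lowest, although MRK-003 and DMSO overlapped beside vector tumour cells.

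For Psat1 the MRK-003 difference was 0.64 ± 0.16 beside Jagged1 tumour cells (1.55-fold higher; adjusted p = 0.247; adjusted p = 0.0292 with the slide as a block) and 0.17 ± 0.16 beside vector tumour cells. The mean of both was 0.40 ± 0.11 for Psat1 (adjusted p = 0.268; adjusted p = 0.0351 with the block) and 0.60 ± 0.15 for Phgdh (adjusted p = 0.197; 0.05 after rounding with the block, where it was called). Jagged1 in DMSO gave -0.55 ± 0.21 for Phgdh (adjusted p = 0.59) and -0.43 ± 0.16 for Psat1 (adjusted p = 0.592), and in MRK-003 0.06 ± 0.21 and 0.04 ± 0.16. With the limited background and the slide as a block, Psat1 passed as lower with Jagged1 in DMSO (adjusted p = 0.0394), beside 2.43% of all genes, and Phgdh did not (adjusted p = 0.0698). With the interaction tested directly, Phgdh gave -0.60 ± 0.29 and Psat1 -0.47 ± 0.23 (adjusted p = 1 each). The Phgdh and Psat1 probes are at chr3:98184399-98184458 and chr19:15606408-15606467 of mm7. Shmt2, the mitochondrial enzyme that turns serine into glycine, overlapped in every comparison, with differences between -0.06 and 0.09.

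Slc7a5 is the large neutral amino acid transporter LAT1. It read -1.34 and -1.22 with Jagged1 and MRK-003, -1.30 and -1.31 with vector and MRK-003, -1.58 and -1.69 with Jagged1 and DMSO, and -1.81 and -1.73 with vector and DMSO. All 4 MRK-003 arrays lay above all 4 DMSO arrays. The difference was 0.36 ± 0.09 beside Jagged1 tumour cells (adjusted p = 0.224) and 0.46 ± 0.09 beside vector tumour cells (unadjusted p = 0.00178, adjusted p = 1). Their mean was 0.41 ± 0.06 (adjusted p = 0.0775), which passed with the slide as a block (adjusted p = 0.0363) or with the limited background (adjusted p = 0.0444). Slc3a2, the partner chain of this transporter, gave 0.12 ± 0.11 and -0.01 ± 0.11 beside Jagged1 and vector tumour cells.

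Chac1 encodes an enzyme that breaks down glutathione and is a marker of the ATF4 and CHOP branch. It read -1.87 and -1.15 with Jagged1 and MRK-003, -1.67 and -1.36 with vector and MRK-003, -2.19 and -2.04 with Jagged1 and DMSO, and -2.20 and -2.24 with vector and DMSO. All 4 MRK-003 arrays lay above all 4 DMSO arrays, although replicates 1 and 2 of Jagged1 MRK-003 lay far apart. The difference was 0.60 ± 0.24 beside Jagged1 tumour cells (1.52-fold higher; adjusted p = 0.565) and 0.70 ± 0.24 beside vector tumour cells (adjusted p = 1).

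Ppp1r15a encodes GADD34, which directs the dephosphorylation of eIF2 and so ends the response. It read -0.97 and -0.92 with Jagged1 and MRK-003, -0.71 and -1.27 with vector and MRK-003, -0.18 and -0.14 with Jagged1 and DMSO, and 0.03 and -0.41 with vector and DMSO. All 4 MRK-003 arrays lay below all 4 DMSO arrays. The difference was -0.78 ± 0.22 beside Jagged1 tumour cells (1.72-fold lower; unadjusted p = 0.0119, adjusted p = 0.293) and -0.80 ± 0.22 beside vector tumour cells (adjusted p = 1). The mean of both was -0.79 ± 0.16 (adjusted p = 0.129), and it passed with the slide as a block (adjusted p = 0.0444). Ppp1r15a and Chac1, both ATF4 targets, therefore lay on opposite sides of 0.

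Asns, Trib3 and Slc7a11 overlapped between MRK-003 and DMSO beside both kinds of tumour cells. Asns, asparagine synthetase, read -0.69 and -0.42 with Jagged1 and MRK-003, -0.70 and -0.39 with vector and MRK-003, -0.65 and -0.39 with Jagged1 and DMSO, and -0.74 and -0.38 with vector and DMSO. The groups were nearly alike within each slide, with differences from -0.04 to 0.05 and standard errors of 0.19. Trib3, a pseudokinase induced by ATF4 and CHOP, read -2.80 and -2.10 with Jagged1 and MRK-003, -2.70 and -2.39 with vector and MRK-003, -2.76 and -2.02 with Jagged1 and DMSO, and -3.22 and -2.56 with vector and DMSO. Slide 2 was higher in every group, and all comparisons overlapped. Within slides 1 and 2 Jagged1 in DMSO gave Trib3 0.46 and 0.54. The difference was 0.50 ± 0.37 (limma, adjusted p = 0.153 with the slide as a block), and 0.31 with the limited background. Slc7a11, the cystine transporter, was the dimmest member (mean Cy3 signal 73.6, well above background on 7 arrays). It read -0.44 and -0.06 with Jagged1 and MRK-003, -0.35 and -0.29 with vector and MRK-003, -0.30 and -0.04 with Jagged1 and DMSO, and -0.29 and -0.33 with vector and DMSO, and all comparisons overlapped.

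Cth makes cysteine from cystathionine, and its value turned on the background correction. It read -2.19 and -1.07 with Jagged1 and MRK-003, -2.10 and -1.83 with vector and MRK-003, -2.66 and -1.27 with Jagged1 and DMSO, and -2.68 and -2.30 with vector and DMSO. The highest values were again those of Jagged1 MRK-003 and Jagged1 DMSO replicate 2, which had spots of high local background. MRK-003 beside Jagged1 tumour cells gave 0.34 ± 0.54, and 1.03 with the limited background (adjusted p = 0.0728). It passed there from the scanner's processed signals (adjusted p = 0.018). Jagged1 in DMSO gave 0.52 ± 0.54, and -0.54 with the limited background and the slide as a block (adjusted p = 0.0284). The transfer RNA synthetases Aars, Nars and Sars and the leucine-sensing stress protein Sesn2 had MRK-003 differences between -0.23 and 0.36. Among them Nars lay wholly above DMSO beside Jagged1 tumour cells (0.36 ± 0.14, unadjusted p = 0.0369, adjusted p = 0.497), Sesn2 lay wholly below DMSO beside both kinds (-0.23 ± 0.13 and -0.22 ± 0.13), and Aars had all 4 MRK-003 arrays above all 4 DMSO arrays by a small margin (0.10 ± 0.08 and 0.06 ± 0.08).

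Jagged1 against vector tumour cells gave the ATF4 targets a median of 0.04 in MRK-003 and 0.04 in DMSO, which became -0.38 and -0.34 with median centring, 0.00 and -0.06 with the limited background. Median centring of values with the limited background gave 0.00 and -0.15. Jagged1 arrays did not overlap vector arrays for 9 of the 42 members in MRK-003, 7 above and 2 below (7.25% and 8.86% of all genes), and for 16 in DMSO, 10 above and 6 below (24.3% and 23.3% of all genes). With Jagged1 in DMSO the 7 epithelial markers tested were all higher, by a median of 0.62, or 0.18 with the limited background, and the 7 macrophage markers by 0.79, or 0.12. With MRK-003 beside Jagged1 tumour cells both lists were lower in 7 of 7, by medians of -0.22 and -0.27, or -0.17 and -0.04 with the limited background, where 2 of the 7 macrophage markers were positive. The part of such RNA in the results was not tested.

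**Figure D4:**
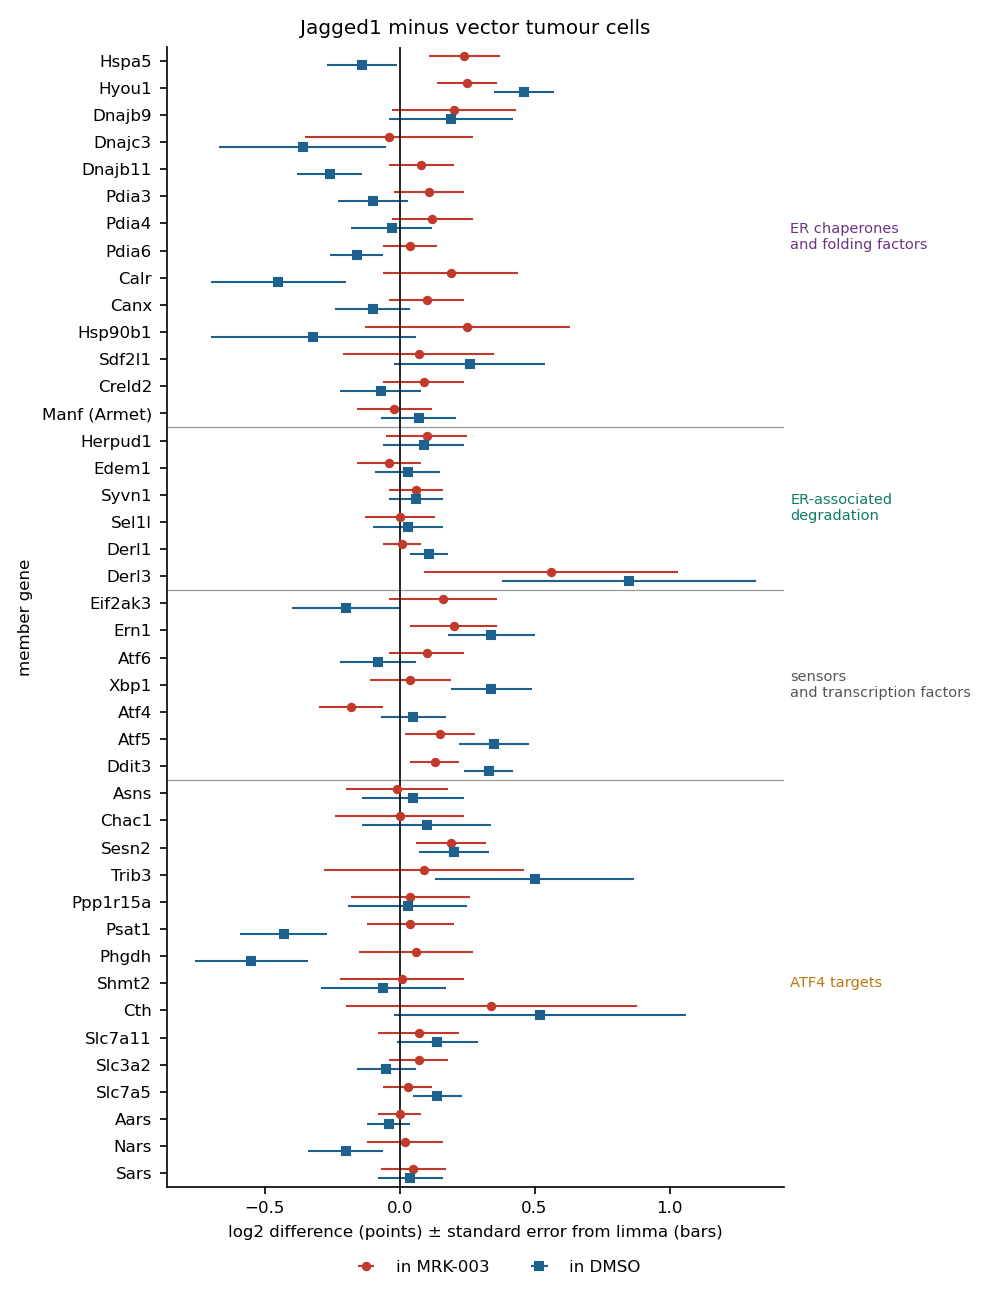
Points show the log2 difference of Jagged1 minus vector tumour cells for each member in MRK-003 and in DMSO, with bars of 1 standard error from limma (n = 2 arrays per group). Hyou1 lies above 0 in both and Phgdh and Psat1 lie below 0 in DMSO with loess scaling, while with median centring Hyou1 is at -0.14 in MRK-003 and 0.06 in DMSO. With median centring of values with the limited background, Hyou1 is at 0.23 and 0.30.

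**Figure D5:**
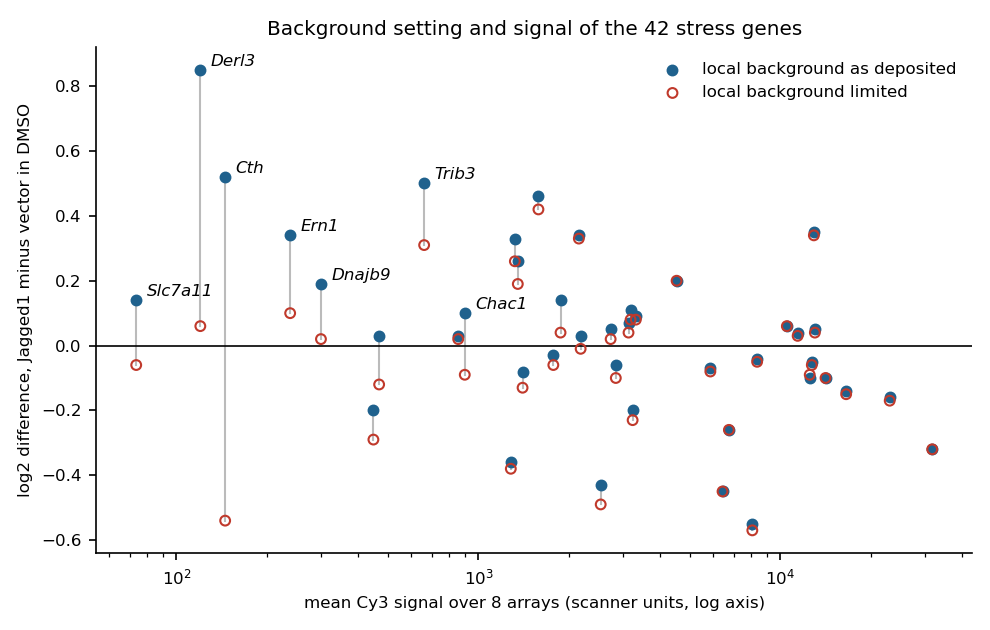
Each point is 1 member, with its mean Cy3 signal on a log axis and its log2 difference of Jagged1 minus vector in DMSO on the vertical axis, from the background as fitted and from the limited background. The dim gene Derl3 is at 0.85 with the background as fitted and at 0.06 with the limited background.

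Further genes of the same pathways were counted from 3 lists. Of 25 further ER genes, 0 passed in any comparison (limma, adjusted p). With MRK-003 beside Jagged1 tumour cells 1 was higher and 4 lower at an unadjusted p under 0.05. Over all genes 4.83% were higher and 3.91% lower. The smallest p belonged to Kdelr3, a receptor that returns chaperones to the ER (-0.58 ± 0.12, adjusted p = 0.144; adjusted p = 0.0389 with the slide as a block). The next were Pdia5 (-0.62 ± 0.15) and Fkbp14 (-0.78 ± 0.19), both folding enzymes. Beside vector tumour cells these 3 stood at -0.34, -0.44 and -0.54. Of 26 further ATF4 targets, 0 passed, with 0 higher and 4 lower at an unadjusted p under 0.05, beside the same shares over all genes. Among these Nupr1, a stress-induced nuclear protein, stood at -1.13 ± 0.25 (adjusted p = 0.18; adjusted p = 0.0185 with the slide as a block), and Pck2 and Ddit4 at -0.67 ± 0.19 and -1.16 ± 0.43.

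Of 11 genes of eIF2, its kinases and its exchange factor, 1 passed. Over all genes 0.311% passed with MRK-003 beside Jagged1 tumour cells. The lists of further genes were written with earlier results of these data known, so their counts are given as a description. Eif2b2, the beta subunit of the exchange factor eIF2B, fell with MRK-003 beside Jagged1 tumour cells by 2.00 ± 0.10 (4.01-fold lower; adjusted p = 0.00399), with differences of -2.09 and -1.92 on slides 1 and 2. Beside vector tumour cells it stood at -0.91 ± 0.10 (adjusted p = 0.758). Jagged1 gave 0.10 ± 0.10 in MRK-003 and 1.19 ± 0.10 in DMSO (adjusted p = 0.0678; adjusted p = 0.0253 with the slide as a block, and adjusted p = 0.0146 with the limited background). None of the 42 members had an adjusted p this small in the same comparison.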

How the data were processed

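Labelled RNA (175 ng) from 8 samples was hybridised with Cy5-labelled reference RNA, with no dye swap. The authors deposited scanner output from Agilent Feature Extraction 9.5.3.1, per the file headers: intensity per spot, local background, and other columns of flags. They also deposited a table of log2 values, which equals the log2 ratio of processed Cy3 over Cy5 plus a constant per array (100% of spots within 0.02); its column medians ran from 0.12 to 0.20, and the source of the constants was not stated. Per the file headers, probe coordinates are of build mm7. The log2 ratios used here were computed from the deposited intensity columns.

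Mean signals were corrected with normexp (offset 50) and normalised by loess within arrays (limma 3.58.1, R 4.3.3), with control spots (1639 of 45018) at weight 0. Spots marked as outliers were left out, which removed 303 of 41174 probes. Of each gene's probes the brightest was taken. Genes had to be well above background in Cy3 on both arrays of a group, which kept 22816 of 27799. Group means were fitted with limma and p-values adjusted by Benjamini-Hochberg over all genes tested. The script was tested on simulated arrays, which unlike the real ones had no difference between slides. There the fit without a block called 3.51% of genes changed by a log2 of 0.5, 46.4% of those changed by 1 and 86.5% of those changed by 2. Of the members, 40 matched by name and Ppp1r15a and Sel1l under the older names Myd116 and Sel1h. Members and lists were chosen with earlier results of these data known. Values on every array are given for the sensors and transcription factors, fixed examples, called members, and in each comparison the 4 of smallest p and 3 of largest difference.

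Replicate numbers mark the slide. Deviations of same-numbered samples from their group means correlated at 0.39 to 0.74 in all 6 pairs of groups. An effect of the slide and a pairing of the samples cannot be told apart here. Values with the slide as a block are given where they change a call. Arrays correlated at 0.774 to 0.982 with each other. The number of arrays limits the precision. Alternatives were the scanner's processed signals, the deposited table, median centring, no filter on dim probes, the mean of all probes, and leaving out each array. Added after seeing the data were a limited background (local background at most the 99th percentile of its array), also with the block or median centring, Cy3 alone, and the mean of both MRK-003 differences.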

Additional observations from a re-analysis of the deposited data

How the results depend on the processing

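Across the alternatives, 271 counts and list medians stayed within the spread between replicates or 1.5 times the count, and 53 did not. With MRK-003 beside Jagged1 tumour cells 0 members passed, and 1 did with the processed signals and with the deposited table, 2 with the limited background and median centring, 2 with the replicate block, and 9 with the limited background and the replicate block, which also called 2 with Jagged1 in DMSO. For the mean of both MRK-003 differences these counts were 1, 1, 2, 6 and 12, and 2 with the limited background. Over all 22816 genes, MRK-003 beside Jagged1 tumour cells called 109 higher and 166 lower from the processed signals. The deposited values gave 105 and 163 there, and the limited background with median centring 272 and 215. The replicate block gave 309 and 215, or 1328 and 890 with the limited background. In the same order the mean gave 87 and 154, 78 and 147, 191 and 239, 316 and 307, and 1098 and 1019. The limited background alone gave 191 and 256 in the mean. No other call of a member changed under the replicate block. Median centring gave chaperone medians of -0.32 and -0.50 for Jagged1 in MRK-003 and in DMSO, -0.12 for MRK-003 beside vector tumour cells and -0.08 for the mean, and ATF4 target medians of -0.38 and -0.34 for Jagged1 and 0.15 for MRK-003 beside vector tumour cells. With the limited background and median centring the chaperone medians were -0.20 for Jagged1 in DMSO, 0.10 for MRK-003 beside Jagged1 tumour cells, -0.31 for the interaction and -0.05 for the mean, and those of ATF4 targets -0.15, 0.25, -0.15 and 0.18. For Jagged1 in DMSO the ATF4 median was -0.06 with the limited background, with or without the replicate block, and with Cy3 alone. Cy3 alone gave chaperone medians of -0.13 for the interaction and -0.08 for the mean. Processed signals and the deposited table gave ATF4 medians of 0.16 and 0.15 for MRK-003 beside vector tumour cells, and 0.18 and 0.19 for the mean. Cth with Jagged1 in DMSO, at 0.52 as reported, was -0.54 with the limited background and replicate block. The cause of these changes was not tested. Leaving out 1 array at a time called 0 members in any comparison. It gave chaperone medians of 0.04 to 0.22 and -0.21 to 0.02 for Jagged1 in MRK-003 and in DMSO, -0.18 to 0.07 and -0.27 to -0.16 for MRK-003 beside Jagged1 and vector tumour cells, and -0.31 to -0.08 for the interaction. The ATF4 target medians were -0.10 to 0.08 for Jagged1 in DMSO, and -0.03 to 0.24 and 0.02 to 0.19 for MRK-003 beside Jagged1 and vector tumour cells. Among the medians that moved beyond the spread between replicates, those that crossed 0 were the chaperone median for Jagged1 in DMSO without Jagged1 DMSO replicate 1 (0.02), that for MRK-003 beside Jagged1 tumour cells without Jagged1 DMSO replicate 2 (0.07) or Jagged1 MRK-003 replicate 1 (0.02), and the ATF4 medians without Jagged1 DMSO replicate 1 (-0.03, MRK-003 beside Jagged1 tumour cells) or replicate 2 (-0.10, Jagged1 in DMSO). Signs of single members changed in 496 of 4536 values under the alternatives. A background limit defined in earlier work on these data was not run. Slc7a11 was well above background on 7 of the 8 arrays.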

Other observations

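Some members had further probes on the array that gave other values than the brightest one. For the alanyl-tRNA synthetase gene Aars, MRK-003 beside Jagged1 tumour cells gave 0.10 with the brightest probe, -0.69 with a second probe and -0.09, -0.08 and -0.06 with 3 others. Calr gave -0.03 and -0.44 in this comparison, -0.67 and -0.11 for MRK-003 beside vector tumour cells, and -0.45 and 0.35 for Jagged1 in DMSO, so the direction with Jagged1 in DMSO differs between its probes. Pdia6, a protein disulphide isomerase, gave -0.07 with the brightest probe and -0.12, -0.52 and -0.20 with the others. Hsp90b1 gave 0.43 and 0.09, and Edem1, which binds misfolded glycoproteins, gave 0.02, -0.32 and 0.05. All 3 Phgdh probes were higher with MRK-003 beside Jagged1 tumour cells, by 0.90, 0.69 and 0.32.

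Saturation touched the reference channel of 4 members and the sample channel of none. It affected Hspa5 and Pdia6 on 4 arrays each, Hsp90b1 on 6 and Phgdh on 1. From Cy3 alone, MRK-003 beside vector tumour cells gave -0.28 for Hspa5 and -0.10 for Pdia6, and MRK-003 beside Jagged1 tumour cells gave 0.97 for Phgdh.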
